A study of Mus musculus with 6 samples.

Results

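Endothelial cells line the blood vessels and the chambers of the heart, and 40 genes that they are known to express were followed in hearts that lack the long non-coding RNA *Trdn-as*. The 40 genes were taken from a list of symbols by a rule that uses no measured value, although the list was drawn up with earlier results of these data known, and all 40 were found among its 21776 genes. Total RNA of mouse hearts had been sequenced on a strand-specific protocol, with 3 libraries labelled *trdn-as* KO and 3 labelled WT. *Trdn-as* is transcribed from the strand opposite to *Trdn*, the gene of triadin in the calcium release complex of heart muscle. In the KO mice a polyA cassette placed by genome editing in the first exon of *Trdn-as* stops its transcription, the allele was homozygous and on a C57BL/6 background, and WT mice carry the unmodified locus. The series' design text speaks of a deficiency in cardiomyocytes, whereas the study's methods describe a germline allele, so endothelial cells of the KO hearts carry it too. Age, sex and the part of the heart taken for sequencing were not given in the sources used here. The study's supplement counts the libraries of each genotype as hearts, so the p-values below rest on the spread between these hearts, moderated over genes.

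Endothelium grows and is maintained through a small number of signalling systems. Vascular endothelial growth factors (VEGFs) and angiopoietins act through receptor kinases on the endothelial surface, and the Notch ligand *Dll4* on a leading endothelial cell restrains the sprouting of its neighbours. Cell junctions built on VE-cadherin seal the vessel wall, and transcription factors of the ETS and SOX families hold the endothelial programme in place. The capillaries of the heart are specialised for fatty acid uptake, since heart muscle burns fat, and endothelial cells also release factors that act on blood flow and clotting.

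Values are read counts of a gene divided by the size factor of the library (normalised reads), listed for replicates 1 to 3 of each genotype. *Trdn-as*, which the table lists under the clone name AC157017.2, had 1, 0 and 1 normalised reads in KO and 690, 773 and 688 in WT hearts, at least 241-fold lower in KO with KO set to a floor of 3 reads per library. *Trdn* itself had 2489, 2381 and 2551 in KO and 1541, 1541 and 1516 in WT hearts. The libraries held an estimated 2587000 to 3618000 counted reads, rounded to 1000, and 3 reads, the limit that a count of 0 allows, correspond to values of 2.61 to 3.77. The floor and the counting errors cover counting only, since the reads carried no molecular identifiers and are not independent of each other. The intervals of fold changes come from limma and rest on the spread between the hearts. That spread is moderated, with 4 residual degrees of freedom per gene and 15.4 from genes of similar level. Intervals and p-values can thus be too small for a gene that varies more between hearts than others of its level. The 40 endothelial genes had means of 49.0 to 2058 normalised reads, and the counting error of a single heart was at most 14.3% of the mean, for *Icam2*.

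All 40 endothelial genes passed the filter of a mean of at least 10 normalised reads, and each was above the floor in every heart. Per kilobase of exon the highest level was that of *Cdh5*, the gene of VE-cadherin, with a mean of 250 normalised reads per kilobase over the 6 hearts, at percentile 98.5 of the 13753 genes tested. *Aqp1*, the water channel of capillary endothelium, followed at 221, and the 2 genes overlapped, with 210 to 271 for *Cdh5* and 206 to 232 for *Aqp1* across hearts. *Kdr* at 168, *Podxl* at 159, *Ptprb* at 154 and *Rgcc* at 148 came next on the same scale. At the other end stood *Sox17*, a transcription factor of arterial endothelium, with 13.4 normalised reads per kilobase at percentile 28.7, and its highest heart (16.1) lay under the lowest heart of the next gene, *Flt4* (19.9). The length used was the union of all annotated exons of a gene, so the order and the percentiles also depend on the annotation. It was 4.77 kilobases for *Sox17* and 4.49 for *Fabp4*, whose annotated exons cover the whole gene. The plot of levels by gene shows this order in the single hearts.

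**Figure D1:**
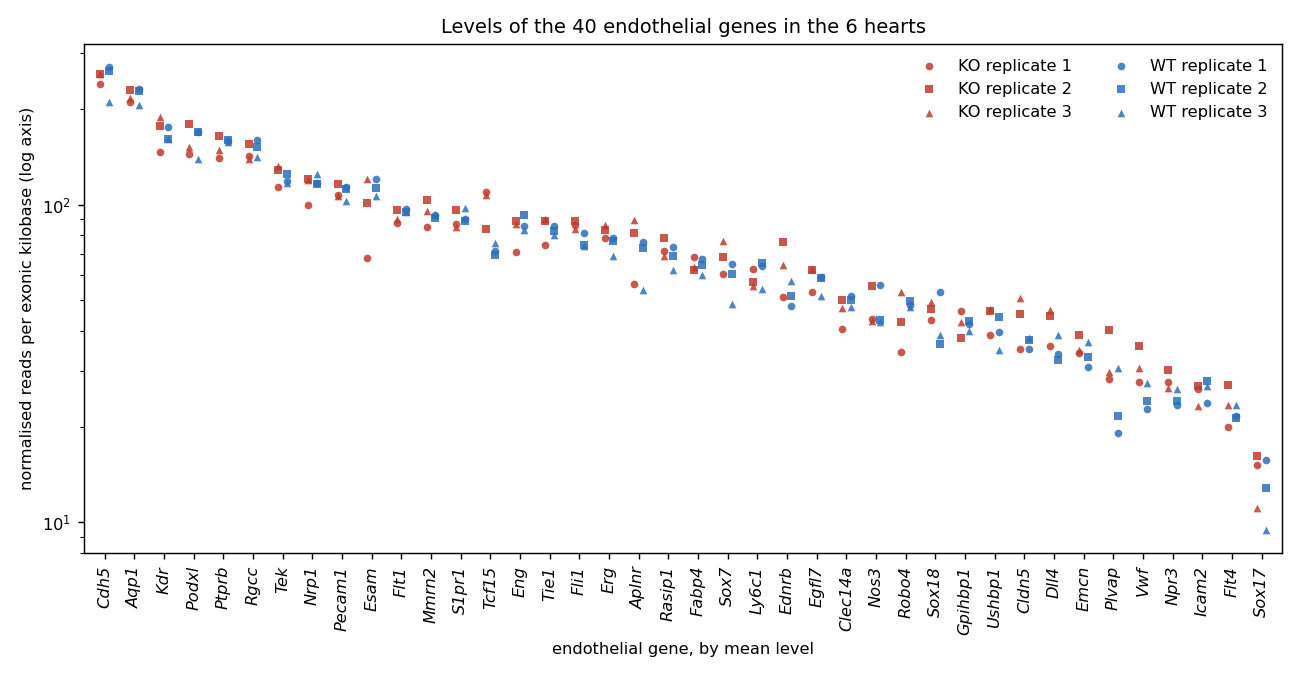
Level of each of the 40 endothelial genes in each of the 6 hearts, as normalised reads per kilobase of exon on a log axis, with the genes ordered by their mean. KO hearts are red and WT hearts blue, with 1 marker shape per replicate number, and the levels run from 250 for *Cdh5* down to 13.4 for *Sox17* while the KO and WT points of most genes lie within the same range.

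The regulatory sequence in front of these genes was read from RefSeq promoters of the build GRCm38.p6, which were available for 21 of the 40 genes as 26 promoters. ETS factors, to which the endothelial regulators *Erg* and *Fli1* belong, bind DNA around a GGAA core, and the ETS motif CAGGAAG was searched on both strands in the 300 bases around each start. It was present in 7 of the 26 promoters (26.9%) and in 13.3% of all 32851 promoters. The variant CCGGAAG, which shares the GGAAG part, was in 0 of the 26 and in 8.86% of all promoters. Either form was thus in 26.9% of the 26 and in 20.9% of all promoters. Counted by gene, either form was in 6 of 21, against 23.1% of all genes. Matches are descriptions of letters in these windows, and binding was not measured. The 8 matches are shown with 20 bases on each side so that the letters around each can be read, and GGAA cores outside this motif and its variant were not searched. Capitals mark the motif, written as CTTCCTG where it lies on the opposite strand.
*Egfl7*, chr2:26580973-26581019, plus strand: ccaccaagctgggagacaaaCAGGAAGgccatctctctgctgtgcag
*Egfl7*, chr2:26581014-26581060, plus strand: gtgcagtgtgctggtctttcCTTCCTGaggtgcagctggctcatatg
*Egfl7*, chr2:26583764-26583810, plus strand: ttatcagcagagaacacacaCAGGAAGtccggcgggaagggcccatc
*Emcn*, chr3:137340884-137340930, plus strand: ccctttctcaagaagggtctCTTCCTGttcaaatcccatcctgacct
*Rasip1*, chr7:45627426-45627472, plus strand: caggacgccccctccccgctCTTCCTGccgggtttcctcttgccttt
*Ushbp1*, chr8:71395839-71395885, minus strand: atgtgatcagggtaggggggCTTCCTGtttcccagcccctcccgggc
*Robo4*, chr9:37401902-37401948, plus strand: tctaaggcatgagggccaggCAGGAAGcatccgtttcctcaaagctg
*Erg*, chr16:95459362-95459408, minus strand: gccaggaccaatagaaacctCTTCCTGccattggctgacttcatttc

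The matches in these genes began 40 (*Erg*) to 174 (*Emcn*) bases before the RefSeq start of their promoter. In *Egfl7*, a secreted protein of endothelium, they lay in front of 2 separate starts. A RefSeq start can be internal, and the matches of *Erg* and *Robo4* and the last listed of *Egfl7* fell inside the annotated coordinates of the gene. Further motifs, also searched on both strands, were close to or under their share of all promoters. The SOX motif ACAAAG was in 5 of 26 (19.2%, against 18.7% of all), the GATA motif AGATAA in 2 (7.69%, against 11.2%) and the TATA motif TATAAA in 3 (11.5%, against 13.6%). Their median GC content was 58.5%, and that of all promoters 52.7%.

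Between KO and WT hearts the median over the endothelial genes differed by little, and the genes with an unadjusted p under 0.05 were all on the higher side in KO. In limma on log2(value + 1), adjusted over all genes, 0 of the 40 genes passed an adjusted p of 0.05, where 4 of the 13753 genes tested did (0.0291%). The smallest adjusted p among the endothelial genes was 0.551, for *Vwf*, and limma-voom also called 0 of them, with a smallest adjusted p of 0.594. At an unadjusted p under 0.05 there were 8 endothelial genes (20%), all 8 higher in KO, and with limma-voom 9. Over all genes tested this share was 5.74%, with 2.94% higher and 2.80% lower in KO, and with limma-voom it was 6.04%. The 8 genes were *Vwf*, *Tcf15*, *Plvap*, *Ednrb*, *Dll4*, *Npr3*, *Fli1* and *Sox7*. The KO and WT values lay apart for 4 of the 40 genes (10%), namely *Vwf*, *Tcf15*, *Npr3* and *Fli1*, all higher in KO, where 9.07% of all genes tested were without overlap, 4.64% with KO higher and 4.44% with KO lower. The median log2 fold change was 0.03 over the 40 genes and 0.00 over all genes, and 27 of the 40 fold changes were positive (67.5%, against 50.6% of all genes). Their fold changes ran from -0.27 for *Esam* to 0.46 for *Tcf15* and *Plvap*, with a median standard error of 0.09. In the sum over the 40 genes, KO hearts had 15014, 17478 and 16820 and WT hearts 16608, 16327 and 15661 normalised reads, so that the WT hearts lay within the range of the KO hearts. The count of 8 rested on single libraries. Without KO replicate 2 there were 2 higher in KO and 1 lower (*Ptprb*), and 4.66% of all genes were under this p. Without KO replicate 3 there were 5 higher and 2 lower (*Esam* and *Robo4*), against 3.69% of all genes. Without WT replicate 1 or WT replicate 2 there were 4, all higher, against 4.36% and 4.73%. Without KO replicate 1 there were 11 and without WT replicate 3 there were 6, all higher, but then 8.24% and 8.60% of all genes were under this p. A count of 2 of the 40 higher in KO also came from limma without its mean-variance trend, where 5.67% of all genes were under this p. *Vwf* and *Tcf15* were the genes that stayed both without the trend and without KO replicate 2. Without KO replicate 1 *Vwf* reached an adjusted p of 0.0484 in limma, and 32 genes of the whole table passed. That number was 2 without KO replicate 2 or WT replicate 1 and 7 without WT replicate 3. In a whole heart, fewer cells of a type and less RNA per cell cannot be told apart.

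**Figure D2:**
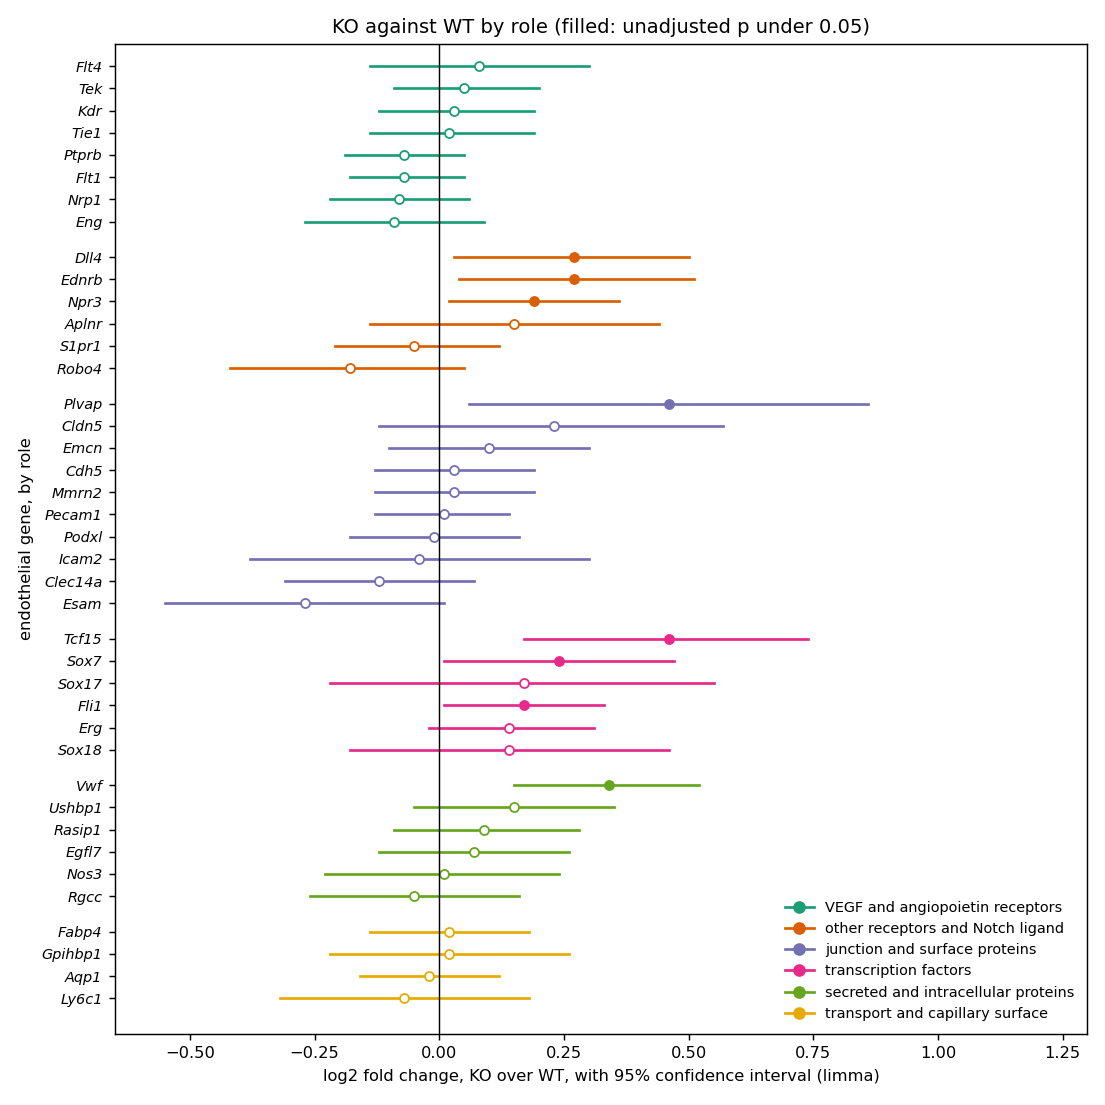
Log2 fold change of KO over WT for each of the 40 endothelial genes, grouped by role, with the 95% confidence interval of limma as a bar. Filled points are the 8 genes with an unadjusted p under 0.05, which all lie to the right of 0, and the intervals of the VEGF and angiopoietin receptors all cross 0.

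The receptors of VEGF and the angiopoietins lay close to 0 on the log2 scale. They comprise the VEGF receptors *Kdr*, *Flt1* and *Flt4*, the co-receptor *Nrp1*, the angiopoietin receptor *Tek* with its relative *Tie1*, the TGF-beta co-receptor *Eng*, and *Ptprb*, a phosphatase that acts on the TEK receptor. None of these 8 reached an unadjusted p of 0.05, 4 were above and 4 below 0, and their log2 fold changes ran from -0.09 (*Eng*) to 0.08 (*Flt4*). The 95% intervals of the 8 genes lay between 0.829-fold and 1.23-fold. Without KO replicate 1, 6 of the 8 were above 0 and *Kdr* had an unadjusted p under 0.05, and without KO replicate 2, 6 were below 0 and *Ptprb* had one. *Nrp1* had 978, 1178 and 1168 normalised reads in KO and 1146, 1139 and 1225 in WT hearts, with the lowest value in KO replicate 1, and a log2 fold change of -0.08 ± 0.07 (SE; limma, unadjusted p = 0.237, adjusted p = 0.916). *Flt1*, a VEGF receptor that also works as a decoy, had 1178, 1300 and 1219 in KO and 1308, 1282 and 1282 in WT hearts, and differed by -0.07 ± 0.06 (SE; limma, unadjusted p = 0.239, adjusted p = 0.916). In both genes KO replicate 2 overlapped with WT. *Kdr*, the main signalling receptor for VEGF, ranged over 1318 to 1702 in KO and 1451 to 1581 in WT hearts. Summed, the 8 receptors reached 7420 ± 643 normalised reads in KO and 7568 ± 63.8 in WT hearts (SD, n = 3 each), and the wide KO spread came from KO replicate 1 with 6689, the lowest of the 6 hearts.

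Among the other receptors and the Notch ligand, 3 of 6 genes were at an unadjusted p under 0.05, all higher in KO. Over all genes tested this share was 5.74%, with 2.94% higher in KO. *Ednrb*, the endothelin receptor that on endothelium promotes nitric oxide release and clears endothelin (chr14:103814625-103844173, minus strand, GRCm38), had 218, 326 and 276 normalised reads in KO and 205, 220 and 246 in WT hearts. KO replicate 1 lay among the WT hearts and the other 2 KO hearts above them, with a ratio of 1.22 and a log2 fold change of 0.27 ± 0.11 (SE; limma, unadjusted p = 0.0260, adjusted p = 0.851). The fold change of *Ednrb* was 0.14 without KO replicate 2 and 0.43 without KO replicate 1. *Dll4*, the Notch ligand of arterial and sprouting endothelium (chr2:119325784-119335962, plus strand), had 138, 172 and 179 in KO and 130, 125 and 149 in WT hearts. Again KO replicate 1 lay within the WT range, and the log2 fold change was 0.27 ± 0.11 (SE; limma, unadjusted p = 0.0275, adjusted p = 0.851). *Npr3*, the receptor that clears natriuretic peptides (chr15:11839896-11905674, minus strand), had 259, 283 and 249 in KO and 220, 226 and 247 in WT hearts. Its groups did not overlap, but by only 2 normalised reads, and its log2 fold change was 0.19 ± 0.08 (SE; limma, unadjusted p = 0.0342, adjusted p = 0.851). Without KO replicate 2, WT replicate 1 or WT replicate 2, 0 of these 3 genes were at an unadjusted p under 0.05, and without KO replicate 3 *Npr3* was left.

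The remaining 3 genes of the group gave values on both sides of 0. *Aplnr*, the apelin receptor, had a log2 fold change of 0.15 with hearts from 208 to 330 in KO and from 199 to 282 in WT. *S1pr1*, the receptor through which sphingosine-1-phosphate strengthens the vessel barrier, stood at -0.05, and *Robo4*, a guidance receptor that stabilises vessels, at -0.18 (-0.02 without KO replicate 1). Of the 8 genes at an unadjusted p under 0.05, *Ednrb*, *Dll4* and *Npr3* had a RefSeq promoter. The 250 bases before a RefSeq start of *Dll4* and *Ednrb* are shown, because these were the ligand and the receptor with the largest fold changes. The *Ednrb* stretch lies inside the gene's coordinates given above, so the RefSeq start used is an internal one. Capitals mark the CG dinucleotides at which DNA can be methylated.
*Dll4*, chr2:119325534-119325783, plus strand: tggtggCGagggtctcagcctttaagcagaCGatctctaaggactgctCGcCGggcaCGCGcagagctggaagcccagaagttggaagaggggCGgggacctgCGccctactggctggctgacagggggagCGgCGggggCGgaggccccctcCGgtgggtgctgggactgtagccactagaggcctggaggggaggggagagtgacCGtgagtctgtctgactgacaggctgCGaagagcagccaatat
*Ednrb*, chr14:103843702-103843951, minus strand: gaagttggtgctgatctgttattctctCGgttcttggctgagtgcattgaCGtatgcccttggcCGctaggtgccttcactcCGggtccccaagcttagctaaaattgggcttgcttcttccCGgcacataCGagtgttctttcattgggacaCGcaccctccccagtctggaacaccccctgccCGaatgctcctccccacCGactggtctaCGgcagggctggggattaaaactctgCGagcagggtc

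The *Dll4* stretch was 65.6% GC with 14 CG dinucleotides and the *Ednrb* stretch 56.8% GC with 11. None of the 5 motifs searched lay in the promoters of these genes.

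Junction and surface proteins, the largest group with 10 genes, showed 1 gene at an unadjusted p under 0.05 and a median log2 fold change of 0.02. That gene was *Plvap*, which forms the diaphragms of fenestrae and caveolae (chr8:71497765-71511752, minus strand). It had 56, 80 and 59 normalised reads in KO and 38, 43 and 61 in WT hearts, so that WT replicate 3 lay above 2 of the 3 KO hearts. The log2 fold change was 0.46 ± 0.19 (SE; limma, unadjusted p = 0.0248, adjusted p = 0.851), with an interval of 1.05-fold to 1.81-fold, and the unadjusted p was above 0.05 without KO replicate 2 (log2 fold change 0.30), WT replicate 1 or WT replicate 2. *Esam*, an adhesion molecule of the endothelial tight junction (chr9:37528078-37538319, plus strand), was the lowest of the 40 genes in fold change. It had 195, 291 and 346 in KO and 346, 323 and 306 in WT hearts and a log2 fold change of -0.27 ± 0.13 (SE; limma, unadjusted p = 0.0614, adjusted p = 0.851). The value of KO replicate 1 set this difference, because without that heart the fold change was -0.03.

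*Cdh5*, whose cadherin holds endothelial cells together, had 1005, 1086 and 1086 normalised reads in KO and 1138, 1103 and 882 in WT hearts. The KO hearts lay inside the WT range, and the log2 fold change was 0.03 with an interval of 0.915-fold to 1.14-fold. *Pecam1* (CD31), a surface marker widely used to recognise endothelium, had 668, 722 and 662 in KO and 707, 698 and 639 in WT hearts, with a log2 fold change of 0.01 and an interval of 0.915-fold to 1.10-fold. *Cldn5*, the claudin of tight junctions, gave 0.23 with 50 to 72 in KO and 50 to 54 in WT hearts. *Emcn* and *Podxl*, sialomucins of the cell surface, gave 0.10 and -0.01. *Mmrn2*, which binds the lectin *Clec14a* in the vessel wall, gave 0.03, *Clec14a* itself -0.12, and *Icam2*, an adhesion molecule for leukocytes, -0.04. All of these overlapped between KO and WT.

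All 6 transcription factors had a positive fold change, as had 50.6% of all genes tested. At an unadjusted p under 0.05 there were 3 of the 6, against 5.74% of all genes. *Tcf15*, a helix-loop-helix factor of heart capillaries (chr2:152143561-152149097, plus strand), had 107, 82 and 105 normalised reads in KO and 70, 68 and 74 in WT hearts. All 3 KO hearts lay above all 3 WT hearts, with a ratio of 1.39 and a log2 fold change of 0.46 ± 0.14 (SE; limma, unadjusted p = 0.00306, adjusted p = 0.713). *Fli1*, an ETS factor (chr9:32422204-32541595, minus strand), had 302, 310 and 292 in KO and 284, 261 and 259 in WT hearts. These groups did not overlap either, and the log2 fold change was 0.17 ± 0.08 (SE; limma, unadjusted p = 0.0378, adjusted p = 0.851). *Sox7* (chr14:63943673-63950732, plus strand) had 199, 225 and 253 in KO and 215, 199 and 160 in WT hearts, where WT replicate 1 lay above KO replicate 1. Its log2 fold change was 0.24 ± 0.11 (SE; limma, unadjusted p = 0.0399, adjusted p = 0.851), and 0.12 without WT replicate 3.

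*Erg*, the ETS factor that maintains endothelial identity, gave 0.14 with an unadjusted p of 0.0891 (limma, adjusted p = 0.869) and touched WT at 273 normalised reads, the value of both KO replicate 1 and WT replicate 1. *Sox17* had 72, 77 and 53 in KO and 75, 61 and 45 in WT hearts and *Sox18* ranged over 70 to 80 in KO and 59 to 86 in WT, with log2 fold changes of 0.17 and 0.14. Summed over the 6 factors, KO hearts had 1023, 1058 and 1082 and WT hearts 1003, 915 and 840 normalised reads. The lowest KO heart was thus 20 reads above the highest WT heart. Means were 1054 ± 29.7 in KO and 919 ± 81.6 in WT (SD, n = 3 each), and no test was run on this sum because the list was chosen with results known. The median log2 fold change of the 6 factors was 0.17, but 0.31 without WT replicate 1 and 0.10 without WT replicate 3, where *Sox17* turned to -0.02. The count of 3 was 1 (*Tcf15*) without KO replicate 2 or WT replicate 3. *Fli1* has 4 unclassified transcripts of the same strand annotated in its introns, named here after their values were seen. Summed, these gave 355, 527 and 440 in KO and 355, 480 and 505 in WT hearts, a ratio of 0.987, where the exons of *Fli1* gave 1.12.

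**Figure D3:**
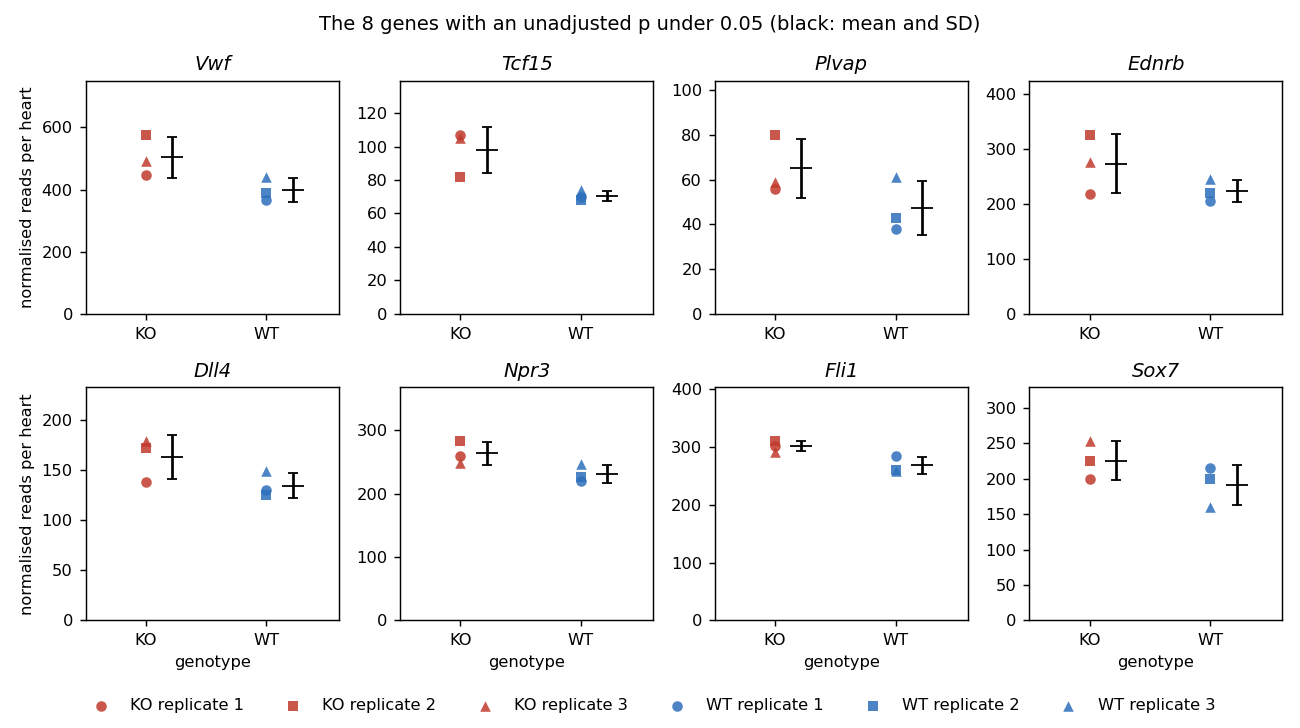
Normalised reads in each heart for the 8 endothelial genes with an unadjusted p under 0.05, from *Vwf* to *Sox7*, on axes that start at 0. Points are single hearts and the black marks give the mean and SD of 3 hearts, and all KO points lie above all WT points for *Vwf*, *Tcf15*, *Npr3* and *Fli1*.

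Among secreted and intracellular proteins *Vwf* stood out. It encodes von Willebrand factor, the glycoprotein that endothelium releases to tether platelets and carry factor VIII (chr6:125546774-125686679, plus strand). KO hearts had 446, 576 and 491 and WT hearts 365, 388 and 441 normalised reads, so that the lowest KO heart lay 5 above the highest WT heart. The ratio was 1.27 and the log2 fold change 0.34 ± 0.09 (SE, interval 1.11-fold to 1.44-fold; limma, unadjusted p = 0.00108, adjusted p = 0.551). *Vwf* kept an unadjusted p under 0.05 in all 15 alternatives, with fold changes of 0.24 to 0.42 and adjusted p of 0.0484 to 0.999 in limma. *Tcf15* did so too, with fold changes of 0.39 to 0.58 and adjusted p of 0.381 to 0.999.

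*Ushbp1*, a protein of endothelium with little known function, had 250, 298 and 303 in KO and 257, 286 and 225 in WT hearts and gave 0.15 ± 0.10 (SE; limma, unadjusted p = 0.135, adjusted p = 0.892). *Rasip1*, a Ras-interacting protein needed for vessel lumens, gave 0.09 and *Egfl7* 0.07. *Nos3*, the endothelial nitric oxide synthase, gave 0.01, with 178 to 229 in KO and 176 to 230 in WT hearts. *Rgcc*, a regulator of the cell cycle found in capillary endothelium, gave -0.05. *Egfl7* is also the host of the endothelial microRNA miR-126a, whose hairpin lies within the gene. It overlaps an exon of some annotated transcript, but exons of all transcripts were pooled here, so it can be intronic in others. The mature strand in RefSeq is shown because the microRNA is known for its abundance in endothelium, with the seed (bases 2 to 8) in capitals, at chr2:26591402-26591423 on the plus strand.
mmu-miR-126a-3p: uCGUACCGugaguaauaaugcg

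The hairpin gene *Mir126a* was listed at 7, 2 and 1 normalised reads in KO and 0, 5 and 3 in WT hearts, mostly at or under the floor, and the protocol did not select small RNA, so that no fold change is given.

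Genes of transport and the capillary surface were level in KO and WT. The fatty acid binding protein *Fabp4* and *Gpihbp1*, which holds lipoprotein lipase on the capillary wall, both gave 0.02. *Aqp1* had 553, 605 and 571 normalised reads in KO and 610, 599 and 541 in WT hearts and gave -0.02 ± 0.07 (SE; limma, unadjusted p = 0.808, adjusted p = 0.989). *Ly6c1*, a surface antigen of capillary endothelium, had 105, 96 and 93 in KO and 108, 110 and 91 in WT hearts and gave -0.07 ± 0.12 (SE; limma, unadjusted p = 0.580, adjusted p = 0.971). Its reads are uncertain because a near-identical gene exists and reads of more than 1 location had been discarded. The 95% intervals of the 4 genes lay between 0.801-fold and 1.20-fold, and their summed values were 1073 ± 12.3 in KO and 1080 ± 67.0 in WT hearts (SD, n = 3 each).

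**Figure D4:**
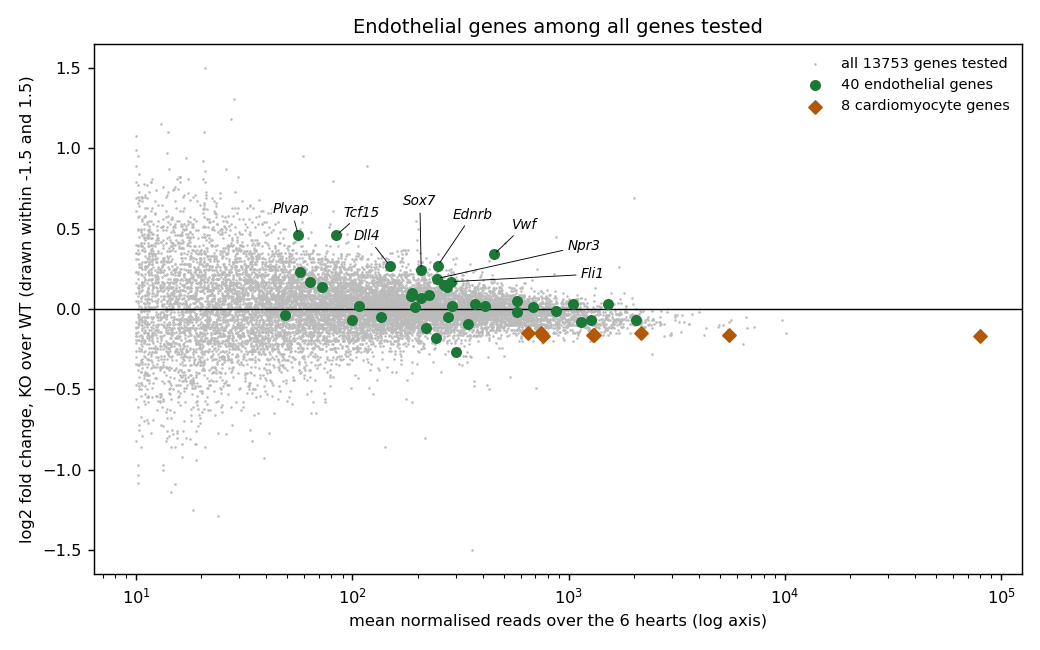
Log2 fold change of KO over WT against the mean normalised reads of the 6 hearts on a log axis, for all 13753 genes tested (grey), the 40 endothelial genes (green) and 8 cardiomyocyte genes (orange diamonds), with values beyond the axis drawn at its edge. The endothelial genes lie within the grey cloud on both sides of 0 from -0.27 to 0.46, the 8 named ones above 0, and the cardiomyocyte genes between -0.17 and -0.15.

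The 40 genes did not vary alike in every heart. Relative to the mean of each gene over the 6 hearts, the median log2 deviation of the 40 genes was -0.08, 0.09 and 0.04 in the KO hearts and 0.03, -0.01 and -0.07 in the WT hearts. The difference between KO and WT, 0.03, was smaller than the SD within groups, 0.07. Leaving out KO replicate 1 raised the median log2 fold change of the 40 genes from 0.03 to 0.11, and leaving out WT replicate 3 brought it to 0.00. KO replicate 2 held the highest value of 13 and the lowest of 1 of the genes, and WT replicate 3 the highest of 2 and the lowest of 15. Over all genes tested the corresponding shares were 17.3% and 16.8% for KO replicate 2 and 14.9% and 16.3% for WT replicate 3. KO replicate 1 was lowest for 12 genes, against 14% of all genes. Separate hearts are expected to vary beyond counting, and the variance between replicates was above the counting variance in 32 of the 40 genes and in 5322 of the 9441 genes tested in the same range of means. The median ratio of the variances was 1.97 and 1.15, and this difference was not tested. The ratio was largest for *Kdr* (14.6), *Aplnr* (11.3), *Podxl* (10.7), *Esam* (10.2) and *Cdh5* (10.1). For *Fli1* it was 0.481 and for *Tcf15* 1.21. With 3 hearts of each genotype the ratio of a single gene is imprecise, and a value under 1 does not show that hearts vary less than counting.

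Measured against the other 39 endothelial genes, which sets aside any difference in the amount of endothelial RNA that all of them share, the picture changed for some genes. Per 1000 normalised reads of the other 39, *Vwf* had 30.6, 34.1 and 30.1 in KO and 22.5, 24.3 and 29.0 in WT hearts, a ratio of 1.25 without overlap. *Fli1* was also higher in all KO hearts on this scale, at a ratio of 1.11, and so was *Erg*, which overlapped before. *Ptprb*, *Eng*, *Flt1* and *Clec14a* were lower in all KO hearts, with a ratio of 0.933 for *Ptprb*. *Tcf15*, at 7.18, 4.71 and 6.28 in KO and 4.23, 4.18 and 4.75 in WT hearts, and *Npr3*, at 16.3 ± 1.27 in KO and 14.5 ± 1.36 in WT hearts (SD, n = 3 each), overlapped on this scale, though not in normalised reads. Without overlap were thus 3 genes higher and 4 lower, where 3.59% of all genes tested were higher and 3.34% lower when set against the summed endothelial reads. In normalised reads these percentages of all genes were 4.64% and 4.44%. They are no like-for-like background here, because members may vary together with the summed endothelial reads and other genes need not. Whether the list exceeds all genes on this scale is therefore left undecided. No test was run on the shares. Members also lie near each other on the chromosomes in 3 places. *Robo4* and *Esam* on chromosome 9 are 113 kb apart with 2 genes between them, and both were lowest in KO replicate 1. *Ushbp1* and *Plvap* on chromosome 8 are 102 kb apart, and *Icam2* and *Pecam1* on chromosome 11 are 271 kb apart.

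Ligands, receptors and targets that work with these genes were followed as a list of 42 signalling partners, of which 41 passed the filter. In limma 0 of the 41 had an adjusted p under 0.05. At an unadjusted p under 0.05 there were 3 (7.32%), close to the 5.74% of all genes tested. *Hes1*, a target gene of Notch, had 125, 138 and 156 normalised reads in KO and 113, 95 and 106 in WT hearts. All KO hearts lay above all WT hearts, and the log2 fold change was 0.41 ± 0.12 (SE; limma, unadjusted p = 0.00202, adjusted p = 0.689). *Klf2*, the factor that endothelium induces under laminar flow, had 96, 88 and 92 in KO and 78, 66 and 83 in WT hearts, with 0.28 ± 0.13 (SE; limma, unadjusted p = 0.0422, adjusted p = 0.851). *Lpl*, the lipoprotein lipase that heart muscle supplies to capillaries, was on the lower side, with 2731, 2776 and 2858 in KO and 3537, 3105 and 2762 in WT hearts and -0.16 ± 0.07 (SE; limma, unadjusted p = 0.0286, adjusted p = 0.851). WT replicate 3 lay within the KO range for *Lpl*, whose fold change was -0.07 without WT replicate 1, -0.25 without WT replicate 3 and -0.08 with a correction for read density. Of the 15 alternatives, *Hes1* kept an unadjusted p under 0.05 in 15, *Klf2* in 12 and *Lpl* in 9. Other Notch genes, named after their values were seen, set the ligand *Dll4* in context. The Notch targets *Hey1* and *Nrarp* gave 0.40 and 0.37 with unadjusted p of 0.0629 and 0.0793 (limma), while the target *Hey2* gave -0.04, the receptors *Notch1* and *Notch4* gave -0.06 and 0.03, and the ligand *Jag1* -0.06. *Vegfa*, the principal ligand of *Kdr*, had 934, 879 and 921 in KO and 1021, 970 and 872 in WT hearts, and gave -0.06 on the log2 scale.

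Genes that mark single vessel beds and are not among the 40 were compared to see whether a bed moved. Of 25 such genes 23 passed the filter, and 0 had an adjusted p under 0.05 in limma. At an unadjusted p under 0.05 there was 1 (4.35%), close to the 5.74% of all genes tested. *Prox1*, the master factor of lymphatic endothelium that heart muscle also expresses, had 1091, 1024 and 1008 normalised reads in KO and 1170, 1151 and 1152 in WT hearts. All KO hearts lay below all WT hearts, and the log2 fold change was -0.15 ± 0.06 (SE; limma, unadjusted p = 0.0121, adjusted p = 0.807). Median log2 fold changes were 0.04 for 5 capillary genes, -0.09 for 6 arterial genes and 0.03 for 3 venous genes. They were 0.01 for 3 endocardial genes and 0.01 for 6 lymphatic genes. The endocardial genes differed from each other, with -0.10 for *Cytl1*, 0.01 for *Nfatc1* and 0.71 ± 0.35 for *Hapln1* (SE; limma, unadjusted p = 0.0571, adjusted p = 0.851). *Hapln1* had few reads, 18, 9 and 15 in KO and 8, 6 and 10 in WT hearts, which overlapped. The venous genes *Ackr1* and *Selp* lay under the filter.

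Marker genes of the other cell types of a heart were read in the same libraries, because a whole heart mixes them with endothelium. All 8 cardiomyocyte genes were lower in KO, by a median of -0.16 on the log2 scale, and their sum was 85069 to 88993 in KO and 88002 to 109022 in WT hearts. *Ttn*, titin, had 73738, 75179 and 76849 in KO and 94044, 84042 and 76522 in WT hearts (limma, log2 fold change -0.17, unadjusted p = 0.0361, adjusted p = 0.851). The median difference of the list was -0.06 without WT replicate 1, -0.25 without WT replicate 3 and -0.04 with a correction for read density, and all 8 stayed lower in each. WT replicate 1 was the highest heart for this list, with a median deviation of 0.27, and held the highest value of 7 of the 40 endothelial genes. Macrophage and leukocyte genes, like the endothelial genes, were lowest in KO replicate 1 and highest in KO replicate 2, with median deviations of -0.26 and 0.24 against -0.08 and 0.09. Their sums over 7 genes ranged over 1203 to 1579 in KO and 1351 to 1378 in WT hearts. Within that list *C1qb*, a complement subunit, had 78, 100 and 90 in KO and 65, 75 and 64 in WT hearts (limma, log2 fold change 0.39, unadjusted p = 0.0117, adjusted p = 0.807). Adipocyte genes summed to 145 in KO replicate 2 and to 30 to 46 in the other hearts. In that list *Car3* had 19, 90 and 17 in KO and 25, 24 and 27 in WT hearts. The part of these cell types in the endothelial values was not tested.

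The remaining lists did not divide the hearts by genotype. Blood genes summed to 164 to 304 in KO and 151 to 423 in WT hearts, and *Hbb-bs*, a beta-globin gene, had 66, 38 and 51 in KO and 91, 43 and 73 in WT hearts. Fibroblast genes had a median log2 fold change of 0.02 (*Dcn*, decorin, -0.10), smooth muscle and pericyte genes one of -0.05 (*Kcnj8*, a potassium channel of pericytes, 0.22) and atrial genes one of 0.17 (*Sln*, sarcolipin, 0.40). Of the mesothelial genes *Wt1* alone passed the filter, at -0.14. Of the 42 tested genes of other cell types, 0 passed an adjusted p of 0.05 in limma and 6 had an unadjusted p under 0.05 (14.3%), 5 of them cardiomyocyte genes lower in KO.

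**Figure D5:**
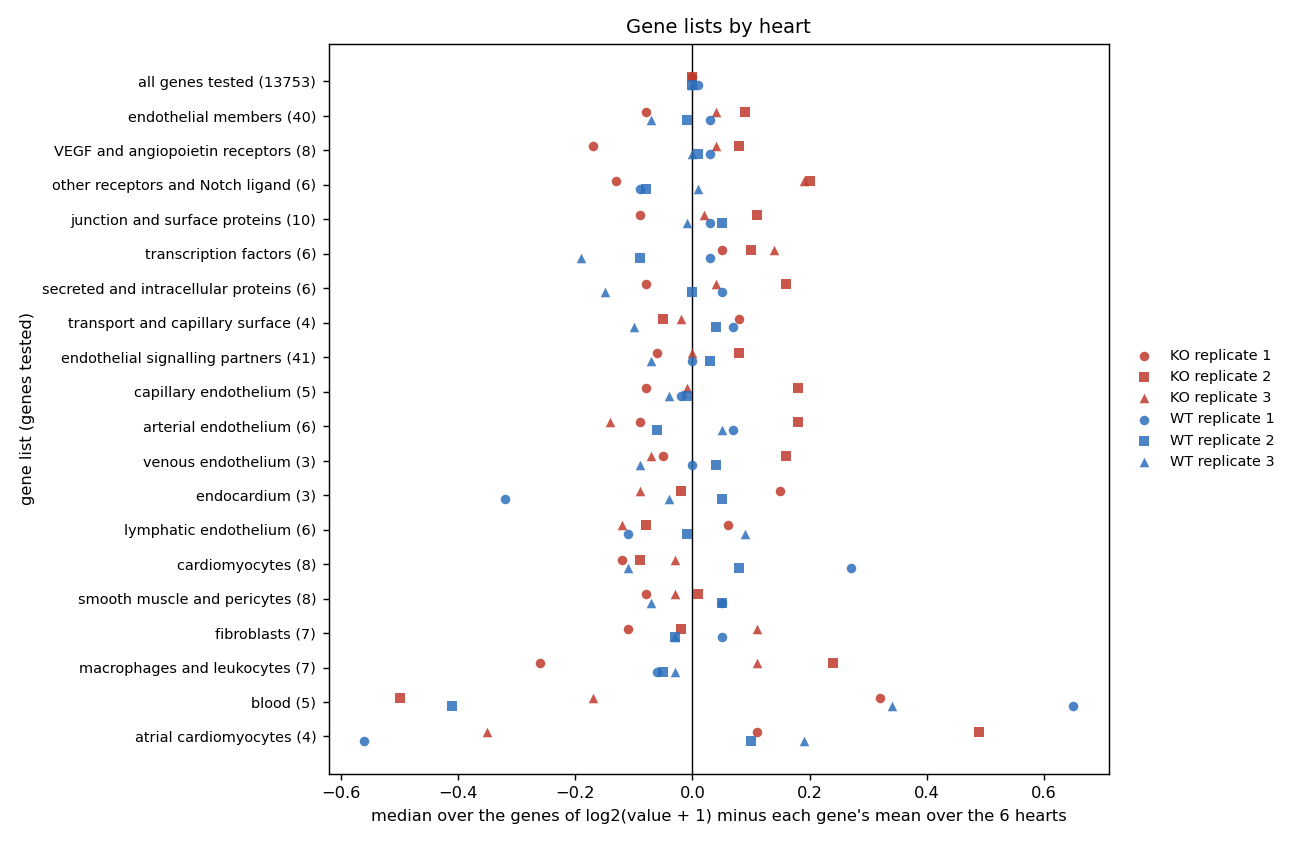
Median deviation of each gene list in each heart, as log2(value + 1) minus the mean of each gene over the 6 hearts, with the number of genes tested in brackets. KO hearts are red and WT hearts blue, and the 40 endothelial genes lie between -0.08 and 0.09 with KO and WT intermixed, while blood and atrial genes spread more widely and the cardiomyocyte list is highest in WT replicate 1.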

How the data were processed

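Trimming, alignment and counting were done by the authors. Reads were trimmed with Trimmomatic 0.39 and aligned to GRCm38 with STAR 2.6.1d, and duplicates (Picard 2.21.1), reads of several locations, and ribosomal and mitochondrial reads were removed. Reads on the sense strand of exons were counted per gene with featureCounts 1.6.5, leaving out reads of more than 1 gene. The authors scaled the counts with DESeq2 1.18.1. The deposited values are a score, the count divided by the size factor of the library and rounded to a whole number. They are not raw counts, so no count model was used. Size factors (0.7951 to 1.149) were inferred from the gaps that rounding leaves between values, and served only for read totals and counting error.

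The comparison of 3 KO with 3 WT libraries used limma 3.58.1 (R 4.3.3) on log2(value + 1), for the 13753 genes with a mean of at least 10, with a mean-variance trend, two-sided, without covariates, and with Benjamini-Hochberg adjustment over all genes tested at 0.05. A fold change on this scale understates the change of low genes. The self-test of the fit was run on simulated data. Exon lengths, the union of all annotated exons of a gene, came from GENCODE M21, where 99.8% of the table's genes were found. Coordinates were identical for 75.2% of all genes and for 30 of the 40 endothelial genes. Of the 40, 8 are overlapped by other annotated features, 5 of these on the opposite strand, which strand-aware counting keeps apart.

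The members and all lists were chosen with earlier results of these data known, so no list was tested as a set or adjusted over itself. Values in each heart are given for the 2 genes of each role with the smallest p, for genes with an unadjusted p under 0.05 or no overlap, and for the highest and lowest level per kilobase. Of the partner and vessel bed lists, genes with an unadjusted p under 0.05 are named, and of each other cell type the gene with the smallest p. Alternatives were limma-voom, no trend, other scalings, filters and pseudocounts, a threshold of 0.01, a replicate block and leaving out each library. A correction for read density was added after seeing the data.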

Additional observations from a re-analysis of the deposited data

How the results depend on the processing

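The number of genes called in the whole table was 4, and it was 1 without the mean-variance trend, 2 at an adjusted p of 0.01 and 2 to 32 when single libraries were left out. Among the 40 endothelial genes 0 were called under every alternative that used all 6 libraries, and 0 to 1 when single libraries were left out, the 1 being *Vwf* without KO replicate 1 (log2 fold change 0.42). The count at an unadjusted p under 0.05 and higher in KO was 2 without the trend and 2 to 11 when single libraries were left out. Of all genes, 5.67% were under this p in either direction without the trend, and 3.69% to 8.60% when single libraries were left out. The count lower in KO was 0, and it was 1 (*Esam*) with no filter beyond a total of 1, and 0 to 2 when single libraries were left out. The median log2 fold change of the 40 genes ranged over 0.00 to 0.11 in the latter. All 8 genes at an unadjusted p under 0.05 stayed higher in KO under all 15 alternatives. The alternatives reuse the hearts that the 8 were picked from, so this is no independent support. Scaling to equal totals moved the median of all genes to 0.02 and limma-voom moved it to 0.03. Directions turned for *Podxl* (0.01 with limma-voom, 0.02 with equal totals, 0.04 with the density correction) and *Aqp1* (0.01, 0.01 and 0.05), genes with fold changes of -0.01 and -0.02. When single libraries were left out, the fold changes of 16 genes took both signs or reached 0. They ranged over -0.04 to 0.14 for *Kdr*, -0.03 to 0.19 for *Flt4*, -0.13 to 0.00 for *Nrp1*, -0.02 to 0.11 for *Tie1*, -0.15 to 0.01 for *Eng*, -0.01 to 0.35 for *Aplnr*, -0.04 to 0.03 for *Pecam1*, -0.08 to 0.10 for *Cdh5*, -0.11 to 0.03 for *Icam2*, -0.10 to 0.06 for *Podxl*, -0.03 to 0.11 for *Mmrn2*, -0.02 to 0.34 for *Sox17*, -0.11 to 0.13 for *Nos3*, -0.03 to 0.06 for *Fabp4*, -0.05 to 0.09 for *Gpihbp1* and -0.07 to 0.02 for *Aqp1*. With the density correction the same 8 genes were at an unadjusted p under 0.05. Replicate numbers did not pair the hearts, since the deviations of same-numbered hearts correlated at 0.0476, -0.0680 and -0.0278 across genes, and with the replicate number as a block 7 of the 8 genes were left, without *Sox7*. *Icam2* lay under a minimum mean of 50, so that this alternative gave no value for it. The cause of these shifts was not tested. At 3 hearts each, the width of the intervals limits what can be said of genes with few reads, as for *Plvap*.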
